A study of Homo sapiens with 12 samples.

Results

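Monocytes are made and held in their identity by a small set of transcription factors, proteins that bind DNA and set which genes a cell transcribes. The 9 genes SPI1, CEBPA, CEBPB, CEBPD, KLF4, IRF8, RUNX1, MYB and ID2 were taken from the deposited table of read counts by their symbols. They make up 9 of its 58735 rows, each symbol was found on 1 row, and all 9 passed the filter of at least 10 counts over the 12 libraries. The members are a list of genes with known roles in the monocyte lineage, chosen with earlier results of these data known.

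As background, SPI1 (PU.1) is the ETS-family factor that opens myeloid enhancers, and it acts with the C/EBP factors and IRF8 at many genes of monocytes. CEBPA drives the step from progenitor to granulocyte-monocyte precursor, whereas CEBPB and CEBPD are induced in mature and stimulated cells, and KLF4 and IRF8 favour the monocyte over the granulocyte fate. RUNX1 and MYB are factors of stem and progenitor cells, and ID2 binds E proteins and keeps them from DNA without a DNA-binding domain of its own.

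The cells were THP1, an established human monocytic leukaemia line, in 4 groups of 3 libraries. In THP1 mono-culture the cells were grown without endothelial cells, and in the other groups they shared medium through a porous membrane with human umbilical vein endothelial cells (ECs) for 24 h. Control ECs had received DMSO, senECs had been made senescent with 10 µM etoposide, a topoisomerase II inhibitor, for 24 h, and EGCG-treated senECs had received etoposide for 24 h and then 100 µM of the tea catechin EGCG for 24 h. All 4 groups, mono-culture included, received LPS at 100 ng/ml and gave RNA 2 h later, so that none of them shows the factors in unstimulated cells. Each condition is a single cell line, and the labels do not say whether the 3 libraries of a group came from separate cultures, so that p-values measure the spread between these libraries, which may be technical.

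The libraries held 15439836 to 22092600 counts, and the counts of all 12 replicate pairs differed by more than sampling noise (chi-square divided by its degrees of freedom, 6.58 to 22.6, largest between the senEC libraries numbered 1 and 5). The senEC library numbered 5 held the highest value of SPI1, CEBPB, CEBPD and ID2 among all 12 libraries. Of 10 monocyte markers, CD68 lay below 1 CPM and the other 9 were measured, with summed levels from 837 to 1376 CPM. Of 12 endothelial markers, MMRN1 was at 0 counts in every library and CDH5 held 2 counts in all, while PECAM1, which monocytes also express, took most of the summed level. That sum ran from 157 to 183 CPM in mono-culture, 155 to 176 CPM with control ECs, 196 to 236 CPM in senEC co-culture and 187 to 243 CPM with EGCG-treated senECs. Without PECAM1 it ran from 21.8 to 27.8 CPM in mono-culture and 25.3 to 27.8 CPM with control ECs. In senEC co-culture it then ran from 26.1 to 34.8 CPM and with EGCG-treated senECs from 25.6 to 28.9 CPM. CPM, the unit used here, is the read count relative to the TMM-scaled size of the library. A gene without a count in the library with the fewest counts could be present at up to 0.194 CPM on its plain total. This is a limit for counting error only.

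The members lie on 9 different chromosomes. SPI1 is at 11:47354860-47378576 (hg38, minus strand), CEBPA at 19:33299934-33302564 (minus), CEBPB at 20:50190734-50192689 (plus) and KLF4 at 9:107484852-107490482 (minus). IRF8 is at 16:85898803-85922609 (plus), RUNX1 at 21:34787801-36004667 (minus), MYB at 6:135181315-135219173 (plus) and ID2 at 2:8678845-8684453 (plus). CEBPA, CEBPB and CEBPD each consist of 1 exon. Antisense gene models overlap exons of CEBPA, CEBPB, MYB and ID2, and the strand setting of the counting is not stated in the sources used here. The antisense rows held few counts over the 12 libraries, with 223 for CEBPB-AS1 against 13918 for CEBPB, 259 for ID2-AS1 against 11735 for ID2 and 48 for MYB-AS1 against 24415 for MYB.

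Promoter sequences of 7 of the 9 members were present in the RefSeq table (GRCh38.p14, the assembly of hg38), which holds 250 bases before and 50 bases after each start. The 30 bases from 45 to 16 before the RefSeq start are shown for 6 of them because a TATA box lies there in promoters that have one. Capitals mark the letters ATAA, which are part of a TATA box, searched on the strand of the gene alone. The letter before them is t in CEBPA, CEBPB and KLF4 and g in ID2, so these letters alone do not show a TATA box.
CEBPA: acgcggcctgccgggtATAAaagctgggcc
CEBPB: tgctacgggccgcccttATAAataaccggg
KLF4: gctgtagcgaaggaagttATAAgtaaggaa
ID2: ccccggcgagtgcggATAAaagccgccccg
MYB: gtgtccaaagctctttgtttgatggcatct
RUNX1: attcctccggccgggcttacagtaaaagca
The 4 stretches with capitals are CEBPA at 19:33302550-33302579 (minus strand), CEBPB at 20:50190785-50190814 (plus), KLF4 at 9:107489785-107489814 (minus) and ID2 at 2:8682011-8682040 (plus). MYB at 6:135181263-135181292 (plus) and RUNX1 at 21:34888715-34888744 (minus) are shown as members without these letters in the window. IRF8 had 2 RefSeq starts without the letters, and CEBPB had another start, without them, upstream of the one shown. The letters were present in 9.42% of the 35116 promoter windows of the table. They were chosen after the letters and the values of the members had been seen, and a match is a description of the sequence alone.

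Because longer transcripts give more reads, the order of the members among themselves was read per kilobase of exon (FPKM, from the TMM-scaled CPM and the union of exons of each gene). SPI1 led with a mean of 139 FPKM over the 12 libraries (109 to 186), followed by IRF8 with 129 FPKM (111 to 150.2), and these ranges overlapped. CEBPA followed with 81.8 FPKM (65.0 to 103), below both of them in every library. The other C/EBP factors were lower and overlapped each other, with CEBPD at 36.2 FPKM (27.3 to 48.6) and CEBPB at 32.6 FPKM (22.6 to 45.1). ID2 had 24.5 FPKM (18.2 to 36.9), MYB 20.3 FPKM (16.8 to 25.1) and RUNX1 17.2 FPKM (14.7 to 19.5), again with overlapping ranges. RUNX1 has 15.574 kb of annotated exons, many of them of alternative transcripts, so that its FPKM is lowered if THP1 cells use the shorter forms. KLF4 was lowest with 7.57 FPKM (6.02 to 9.98), below every other member in all 12 libraries. All 9 were thus well measured, with at least 377 counts in any library (KLF4) and up to 15693 (IRF8). In bulk RNA of this kind, fewer cells with a transcript and less transcript per cell cannot be told apart.

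**Figure D1:**
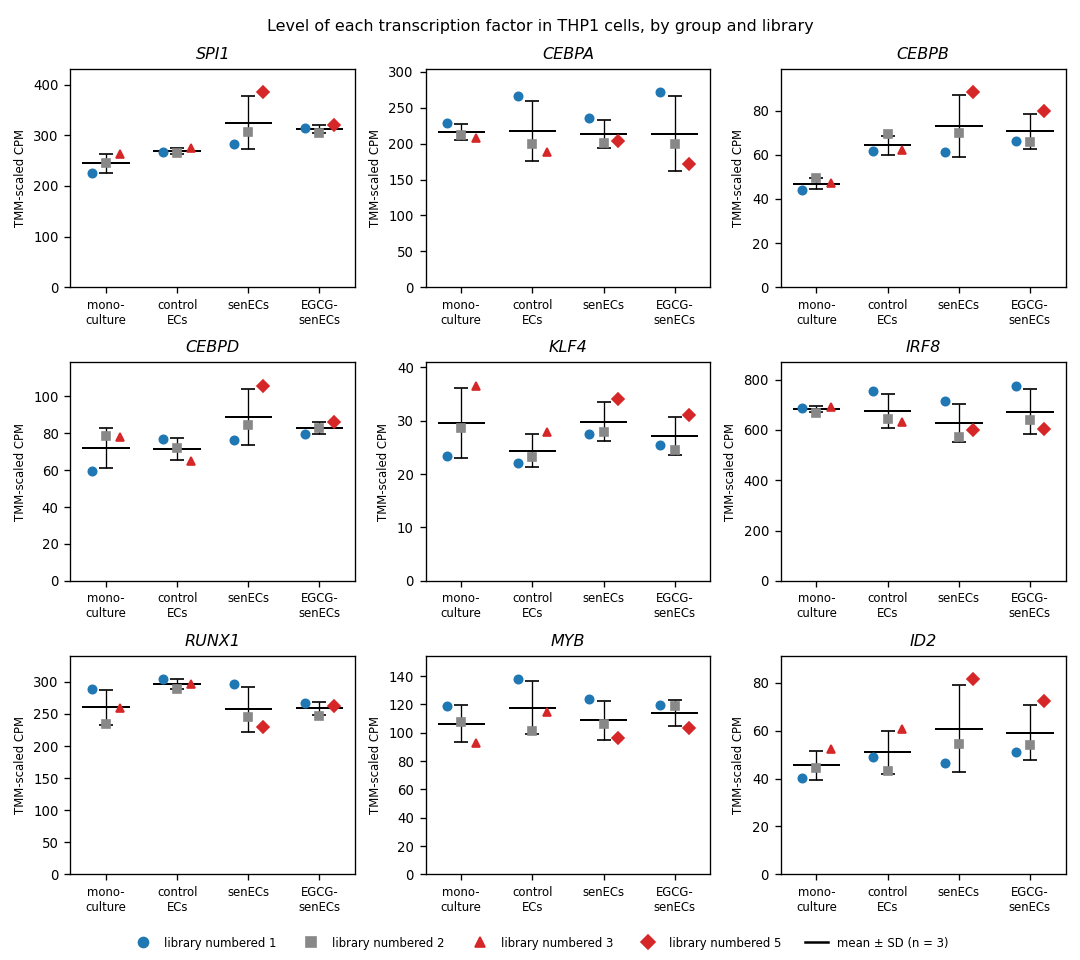
Level of each of the 9 factors in TMM-scaled CPM (vertical axes, from 0) in the 12 libraries, by group (horizontal axis) with the mean ± SD of 3 libraries in black. For CEBPB the 3 mono-culture libraries sit between 44.2 and 49.4 CPM and all 9 co-culture libraries at 61.0 CPM or above.

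CEBPB was higher in THP1 cells co-cultured with ECs than in mono-culture, and it was the member with the largest difference. The mono-culture libraries numbered 1, 2 and 3 held 44.2, 49.4 and 47.2 CPM. With control ECs the libraries numbered 1, 2 and 3 held 61.6, 69.2 and 62.0 CPM, with senECs those numbered 1, 2 and 5 held 61.0, 69.7 and 88.3 CPM, and with EGCG-treated senECs those numbered 1, 2 and 5 held 66.1, 66.0 and 79.7 CPM. None of the 9 co-culture libraries reached down to the mono-culture range, while the 3 co-culture groups overlapped one another. The mean of the 3 co-cultures exceeded mono-culture by 0.56 ± 0.11 (log2 fold change ± SE), 1.47-fold, with an adjusted p of 0.0127 in edgeR's quasi-likelihood test over 25873 genes. Single groups differed from mono-culture by 0.45 ± 0.13 for control ECs (adjusted p = 0.285), 0.64 ± 0.13 for senECs (adjusted p = 0.0317) and 0.59 ± 0.13 for EGCG-treated senECs (adjusted p = 0.0663). The call for the mean of the co-cultures was lost without any 1 of the mono-culture libraries (adjusted p from 0.0915 to 0.0960, log2 fold changes from 0.52 to 0.60). It held in the other 9 of 12 such fits, and with every other filter, scaling, test and model tried (adjusted p from 6.9e-06 to 0.0218). The call for senECs was lost without any mono-culture library and without the senEC library numbered 2 (adjusted p = 0.110) or 5 (0.180, log2 fold change 0.48). It was also lost with only the libraries compared (adjusted p = 0.117), a minimum of 10 counts in every library (0.0529), edgeR's filterByExpr (0.0527) and bias-adjusted deviances (0.0527). It held with DESeq2 and with all genes of at least 1 count. With the library number added to the model, CEBPB was also called for control ECs and for EGCG-treated senECs.

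SPI1 followed CEBPB in these comparisons, with a smaller difference. Its mono-culture libraries numbered 1, 2 and 3 held 226, 245 and 263 CPM. The co-cultures held 267, 265 and 275 CPM with control ECs (numbered 1, 2 and 3), 284, 307 and 385 CPM with senECs (numbered 1, 2 and 5) and 315, 305 and 319.7 CPM with EGCG-treated senECs (numbered 1, 2 and 5). All 9 co-culture values lay above the 3 of mono-culture, with a gap of 1 to 2 CPM between the nearest libraries of control ECs and mono-culture. The log2 fold change of the mean of the co-cultures was 0.30 ± 0.09, which did not pass in edgeR (adjusted p = 0.181) and passed in DESeq2 (adjusted p = 0.0372). For senECs against mono-culture it was 0.41 ± 0.11 (adjusted p = 0.135 in edgeR and 0.0205 in DESeq2), and 0.27 without the senEC library numbered 5 (adjusted p = 0.615 in edgeR). For control ECs it was 0.14 ± 0.11 (adjusted p = 0.924) and for EGCG-treated senECs 0.36 ± 0.11 (adjusted p = 0.276).

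Over the list, CEBPB was thus the 1 member of 9 called for the mean of the co-cultures, where 0.723% of all genes tested were called. The same member was called for senECs against mono-culture, with 0.309% of all genes called. No member passed for control ECs (0.143% of all genes called) or for EGCG-treated senECs (0.213%). An unadjusted p under 0.05 was found in edgeR for 1 and 3 members, beside 1687 and 2220 of the 25873 genes. DESeq2 called 0 and 1 members in these comparisons, beside 116 and 226 of the 25873 genes. With all genes of at least 1 count CEBPB passed for both (adjusted p = 0.0211 and 0.000317). The separation of all 9 co-culture libraries upwards from all 3 of mono-culture was found in 2 of 9 members and in 1.77% of all genes. In pairs of groups, the libraries did not overlap for SPI1, CEBPB and RUNX1 between control ECs and mono-culture (12.8% of all genes), for SPI1 and CEBPB between senECs and mono-culture (16.7%) and for SPI1, CEBPB and CEBPD between EGCG-treated senECs and mono-culture (14.1%), each of them higher in co-culture. The median log2 fold change of the 9 members for the mean of the co-cultures was 0.09, beside a median of -0.02 over all genes tested.

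The other C/EBP factors differed less from mono-culture. CEBPD, at 8:47736909-47739086 (hg38, minus strand), held 59.6, 78.6 and 78.1 CPM in mono-culture, 76.9, 72.0 and 65.1 CPM with control ECs, 76.3, 84.5 and 106 CPM in senEC co-culture and 79.7, 83.0 and 86.1 CPM with EGCG-treated senECs. Its senEC and EGCG-treated senEC libraries tended to the upper part of the range, yet those of senECs overlapped mono-culture. The log2 fold change of the mean of the co-cultures was 0.16 ± 0.10 (adjusted p = 0.617). CEBPA, the factor of the earlier step, had nearly the same mean in every group, from 213.6 ± 19.2 CPM with senECs to 217.9 ± 42.0 CPM with control ECs (SD, n = 3), and its log2 fold change was -0.01 ± 0.12 (adjusted p = 0.999, 95% interval from -0.26 to 0.25). Within the family, the factors thus differed in their fold changes in the order CEBPB, CEBPD, CEBPA, but differences between members were not tested.

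KLF4 and IRF8, the factors of the monocyte fate, did not pass against mono-culture. KLF4 held 23.4, 28.7 and 36.5 CPM in mono-culture, 22.0, 23.2 and 27.9 CPM with control ECs, 27.5, 27.9 and 34.0 CPM in senEC co-culture and 25.5, 24.6 and 31.1 CPM with EGCG-treated senECs. The mono-culture libraries span nearly the whole range of the other groups. Its log2 fold change was -0.13 ± 0.13 for the mean of the co-cultures (adjusted p = 0.769) and -0.28 ± 0.16 for control ECs alone (adjusted p = 0.814). IRF8 was the most abundant member in CPM, with 682.2 ± 12.5 CPM in mono-culture, 676 ± 67.2 CPM with control ECs, 628 ± 75.3 CPM in senEC co-culture and 673 ± 90.3 CPM with EGCG-treated senECs (SD, n = 3). Its log2 fold change for the mean of the co-cultures was -0.05 ± 0.09 (adjusted p = 0.903), with a 95% interval from -0.25 to 0.14.

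The progenitor factors RUNX1 and MYB also did not pass. RUNX1 held 288, 234 and 259 CPM in mono-culture, 304, 288 and 297 CPM with control ECs, 296, 245 and 229.6 CPM in senEC co-culture and 267, 247 and 263 CPM with EGCG-treated senECs. The control EC libraries sat at the top of its range, above the highest mono-culture library by less than 1 CPM at their nearest. The log2 fold change for the mean of the co-cultures was 0.05 ± 0.09 (adjusted p = 0.887). MYB had means from 106 ± 13.2 CPM in mono-culture to 118 ± 18.4 CPM with control ECs, a difference below the SD of either group, and a log2 fold change of 0.09 ± 0.10 for the mean of the co-cultures (adjusted p = 0.809).

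ID2, the inhibitor of E proteins, had a higher mean in every co-culture, with a wide spread, and did not pass. It held 40.2, 44.3 and 52.1 CPM in mono-culture, 49.1, 43.1 and 60.5 CPM with control ECs, 46.6, 54.4 and 81.3 CPM in senEC co-culture and 51.1, 54.1 and 72.3 CPM with EGCG-treated senECs. Every co-culture group overlapped mono-culture. The log2 fold changes were 0.16 ± 0.18 for control ECs (adjusted p = 0.967), 0.42 ± 0.18 for senECs (adjusted p = 0.405), 0.38 ± 0.18 for EGCG-treated senECs (adjusted p = 0.581) and 0.32 ± 0.15 for their mean (adjusted p = 0.459).

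Among the 3 co-cultures, which address whether senescence of the ECs or EGCG changes the THP1 cells, no member passed. For senECs against control ECs, edgeR and DESeq2 each called 0 of the 25873 genes (0%), while 1709 genes and 2 members, SPI1 and CEBPD, had an unadjusted p under 0.05. SPI1 was higher with senECs by 0.27 ± 0.11 on the log2 scale (95% interval from 0.05 to 0.50, adjusted p = 0.728), and it was the 1 member whose libraries did not overlap, as in 11.0% of all genes. Without the senEC library numbered 5 this difference was 0.13, and it was 0.17 for CEBPD, 0.19 for KLF4, 0.023 for CEBPB and -0.0094 for ID2. CEBPD was higher by 0.32 ± 0.13 (interval from 0.05 to 0.58, adjusted p = 0.728), KLF4 by 0.29 ± 0.16 (interval from -0.03 to 0.62), ID2 by 0.26 ± 0.18 (interval from -0.12 to 0.63) and CEBPB by 0.18 ± 0.12 (interval from -0.08 to 0.44). The remaining members had values below 0, with RUNX1 at -0.20 ± 0.11 (interval from -0.43 to 0.02), MYB at -0.11 ± 0.13, IRF8 at -0.10 ± 0.11 and CEBPA at -0.03 ± 0.15. The adjusted p of these members ran from 0.728 to 0.980. The intervals do not show that the groups were alike.

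EGCG treatment of the senECs went with the smallest differences. For EGCG-treated senECs against senECs, both tools called 0 genes (0%), 575 genes had an unadjusted p under 0.05 in edgeR and none of them was a member. The 9 log2 fold changes ran from -0.14 ± 0.16 for KLF4 (95% interval from -0.46 to 0.19) to 0.10 ± 0.11 for IRF8 (interval from -0.14 to 0.34), and each interval included 0. The libraries of these groups overlapped for all 9 members, and failed to overlap in 5.48% of all genes. For EGCG-treated senECs against control ECs, both tools again called 0 genes (0%), with 1177 genes and no member at an unadjusted p under 0.05. Here SPI1 and CEBPD lay higher without overlap and RUNX1 lower without overlap (3 of 9 members, beside 9.49% of all genes), with log2 fold changes of 0.22 ± 0.11 for SPI1 and -0.19 ± 0.11 for RUNX1 (adjusted p = 0.979 for both). The comparisons of senECs and of EGCG-treated senECs with control ECs share the control EC libraries.

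**Figure D2:**
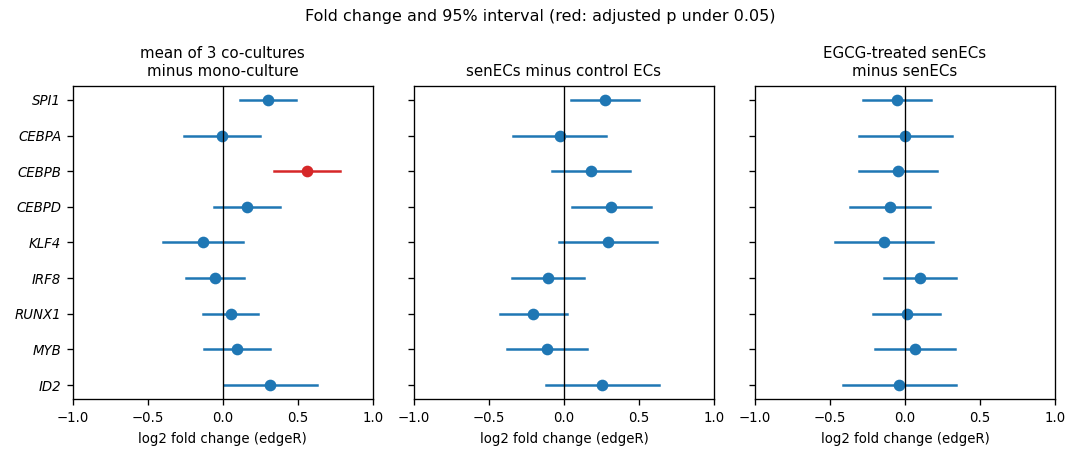
Log2 fold changes (horizontal axes) of the 9 factors from edgeR with 95% intervals, for the mean of the 3 co-cultures against mono-culture, senECs against control ECs and EGCG-treated senECs against senECs. The interval of CEBPB against mono-culture (0.56, in red) is the 1 that passed after adjustment, and all 9 intervals in the right panel include 0.

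Beyond the group, the members varied with the number that the labels give to a library. All groups have libraries numbered 1 and 2, the third is numbered 3 in mono-culture and control ECs and 5 in senECs and EGCG-treated senECs, and the labels do not say what a number stands for. In edgeR's test of the number beside the group, with 1, 2, 3 and 5 as separate levels, 3 of 9 members passed, where 5.65% of all genes did. They were ID2 (adjusted p = 0.000986), CEBPA (0.0136) and KLF4 (0.0348), while CEBPB (0.0679), MYB (0.101) and IRF8 (0.112) did not pass and had an unadjusted p under 0.05. RUNX1 (0.328), SPI1 (0.363) and CEBPD (0.446) did not pass either. With 1 library left out, ID2 passed in 12 of 12 fits and CEBPA in 9, with the call lost without the library numbered 1 of control ECs (adjusted p = 0.131) or of EGCG-treated senECs (0.190) or that numbered 3 of control ECs (0.0544). KLF4 passed in 4 of 12, and its call was lost without the mono-culture libraries numbered 1, 2 and 3 (0.154, 0.0563 and 0.241), the control EC libraries numbered 1 and 3 (0.0852 and 0.0993), the senEC libraries numbered 1 and 2 (0.0780 and 0.0673) and the EGCG-treated senEC library numbered 1 (0.0700).

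The direction differed between members. Libraries numbered 3 or 5, the third of each group, are described together here and below, although the labels do not link these numbers. CEBPA held 228 to 272 CPM in the 4 libraries numbered 1, 199 to 212 CPM in those numbered 2 and 171 to 207 CPM in those numbered 3 or 5, so that the first set did not overlap either of the others. In each of the 4 groups its highest library was the one numbered 1. MYB and RUNX1, which did not pass the test of the number, were also highest in the library numbered 1 in 4 of 4 groups, as were 5.11% of all genes, and IRF8 was so in 3 of 4.

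ID2 and KLF4 had the opposite order. ID2 held 40.2 to 51.1 CPM in the libraries numbered 1 and 52.1 to 81.3 CPM in those numbered 3 or 5, again without overlap, and its highest library was numbered 3 or 5 in all 4 groups. KLF4 held 22.0 to 27.5 CPM in the libraries numbered 1 and 27.9 to 36.5 CPM in those numbered 3 or 5, also without overlap. The libraries numbered 1 did not overlap those numbered 3 or 5 for CEBPA, KLF4, MYB and ID2, 4 of 9 members, and for 11.5% of all genes. SPI1, which did not pass the test of the number, was highest in the library numbered 3 or 5 in 4 of 4 groups, as were KLF4, ID2 and 4.35% of all genes.

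**Figure D3:**
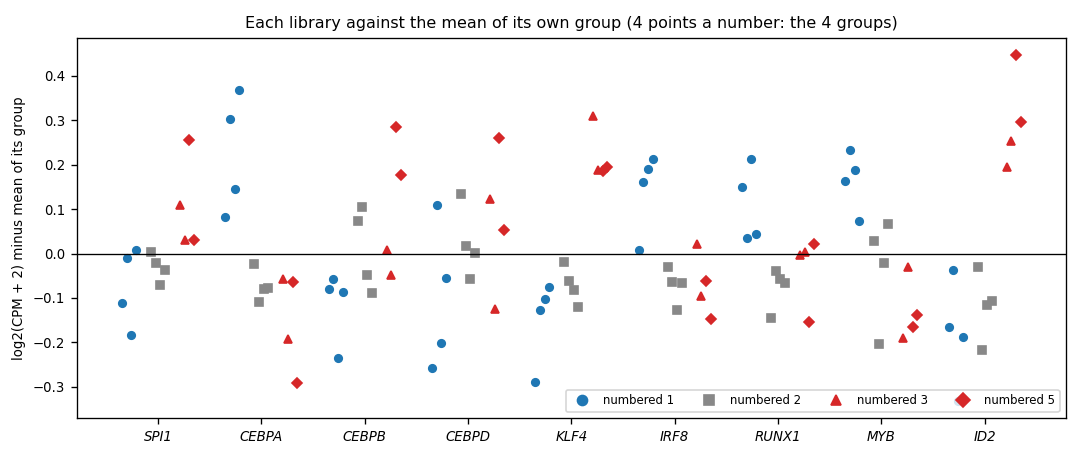
Difference of each library from the mean of its own group in log2(CPM + 2) (vertical axis) for the 9 factors (horizontal axis), with colour and symbol giving the number of the library and 1 point for each group. For CEBPA all 4 libraries numbered 1 lie above 0, and for ID2 and KLF4 all 4 libraries numbered 3 or 5 do.

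The same difference was seen in the split of the variation. Of the sum of squares of log2(CPM + 2) over the 12 libraries, the number given the group took 77.3% for CEBPA, 65.8% for IRF8, 63.4% for KLF4, 63.4% for MYB and 62.2% for ID2. The group given the number took 0.163% for CEBPA, 8.65% for IRF8, 29.4% for KLF4, 13.1% for MYB and 13.8% for ID2. RUNX1 had 39.1% for the number and 30.6% for the group, and CEBPD 23.3% and 16.1%. For CEBPB and SPI1 the order was turned round, with 44.9% and 39.9% for the group and 21.1% and 17.7% for the number. The medians over the 9351 genes with a mean of at least 10 CPM were 23.0% for the group and 33.5% for the number. Group and number are not balanced, so that the shares need not add up to the whole.

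**Figure D4:**
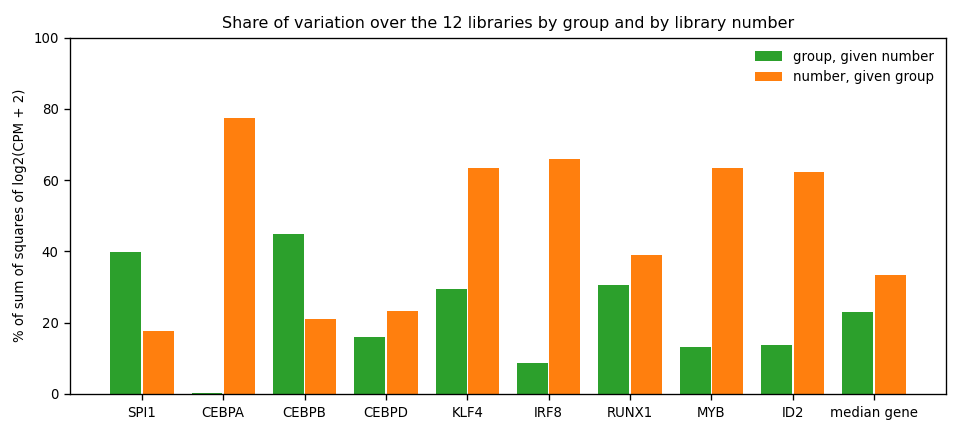
Share of the sum of squares of log2(CPM + 2) in percent (vertical axis) taken by the group given the library number (green) and by the number given the group (orange), for the 9 factors and for the median gene. CEBPB and SPI1 have the taller green bars, 44.9% and 39.9%, and CEBPA has the tallest orange bar at 77.3%.

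Other listed genes moved with the library number too. All 14 listed genes of the early LPS response passed the test of the number, and IL1B, a cytokine transcript induced by LPS, held 131 to 172 CPM in the libraries numbered 1, 231 to 270.1 CPM in those numbered 2 and 611 to 866 CPM in those numbered 3 or 5. Among monocyte genes under control of SPI1 and the C/EBP factors, 12 of 18 passed. Of the other regulators of myeloid development 9 of 25 passed, of genes of granulocyte-monocyte progenitors 5 of 13, of relatives of the members 5 of 14 tested and of partner proteins 3 of 13. Of all genes tested 5.65% passed, and 1597 of 13903 did with a minimum of 10 counts in every library. The part of LPS response, culture or handling in the members' differences by number was not tested.

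The wider families and pathways gave few calls against mono-culture. Among 14 tested relatives of the members, ID1, which like ID2 inhibits E proteins, was the 1 that passed. It held 75.8, 76.5 and 89.0 CPM in mono-culture, 116, 106 and 142 CPM with control ECs, 122, 132 and 181 CPM in senEC co-culture and 124, 121 and 155 CPM with EGCG-treated senECs, so that all 9 co-culture libraries lay above mono-culture. Its log2 fold change was 0.72 ± 0.12 for the mean of the co-cultures (adjusted p = 0.00645), 0.85 ± 0.15 for senECs (adjusted p = 0.0113) and 0.73 ± 0.15 for EGCG-treated senECs (adjusted p = 0.0388). Without the mono-culture library numbered 2 the adjusted p for the mean of the co-cultures was 0.101, and that for senECs was 0.0539 and 0.104 without the mono-culture libraries numbered 1 and 2 and 0.0595 without the senEC library numbered 5. The adjusted p for EGCG-treated senECs ran from 0.00873 to 0.258 when single libraries were left out, and it passed in 4 of 12 such fits, those without the control EC library numbered 3, the senEC libraries numbered 1 and 5 and the EGCG-treated senEC library numbered 1. The call for EGCG-treated senECs was also lost with a minimum of 10 counts in every library (0.0688), filterByExpr (0.0730) and bias-adjusted deviances (0.0609), and the call for senECs with only the libraries compared (0.0539). The other relatives did not pass, with MYBL2 at 0.27 ± 0.08 (adjusted p = 0.199) and SPIB at -0.62 ± 0.26 (adjusted p = 0.384) for the mean of the co-cultures. None of the 13 partner proteins and none of the 25 other regulators passed in any of the 7 comparisons of groups. TCF4, an E protein that ID factors bind, had a log2 fold change of 0.38 ± 0.13 (adjusted p = 0.242) and VDR, the vitamin D receptor, one of 0.46 ± 0.11 (adjusted p = 0.0731).

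Of 18 monocyte genes listed as targets of SPI1 and the C/EBP factors, CD14 and FCGR1A passed for the mean of the co-cultures, both upwards. CD14, the co-receptor for LPS, held 5.91, 9.91 and 11.0 CPM in mono-culture, 12.4, 18.0 and 26.2 CPM with control ECs, 16.6, 32.3 and 65.7 CPM in senEC co-culture and 12.8, 28.1 and 41.6 CPM with EGCG-treated senECs. All 9 co-culture libraries lay above mono-culture, and within each group the library numbered 1 was the lowest. The log2 fold change was 1.59 ± 0.37 for the mean of the co-cultures (adjusted p = 0.0492) and 2.09 ± 0.42 for senECs (adjusted p = 0.0363, and 0.258 with a log2 fold change of 1.44 without the senEC library numbered 5). With 1 library left out, the call for the mean held in 4 of 12 fits (adjusted p up to 0.275) and that for senECs in 5 of 12, and both were lost without any 1 of the mono-culture libraries, the control EC library numbered 2, the senEC library numbered 2 or the EGCG-treated senEC library numbered 2. The call for the mean was also lost without the library numbered 3 of control ECs or 5 of EGCG-treated senECs (adjusted p of 0.0743 and 0.0749). It was lost as well with DESeq2's size factors (0.0526), a minimum of 10 counts in every library (0.0905), filterByExpr (0.0951) and bias-adjusted deviances (0.0841), and that for senECs with the minimum of 10 counts (0.0779), filterByExpr (0.0783), only the libraries compared (0.0793) and bias-adjusted deviances (0.0624). FCGR1A, a high-affinity IgG receptor, had 28.5 ± 2.15 CPM in mono-culture and 40.6 ± 5.73 CPM with control ECs, 41.3 ± 8.91 CPM with senECs and 43.9 ± 5.04 CPM after EGCG (SD, n = 3). Its log2 fold change was 0.55 ± 0.12 (adjusted p = 0.0348). The call was lost without any 1 of the mono-culture libraries, the control EC library numbered 3 or the EGCG-treated senEC library numbered 2 or 5 (adjusted p from 0.0596 to 0.216), and with bias-adjusted deviances (0.0526). Its reads may be split with the near-identical FCGR1B and FCGR1CP, which held 1817 and 910 counts beside its 8405. Of the 18 genes, 14 had a log2 fold change above 0 for the mean of the co-cultures. CSF1R, the receptor for the growth factor of macrophages, was among those below 0, at -0.25 ± 0.14 (adjusted p = 0.563).

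Of 13 progenitor genes, 7 had a log2 fold change above 0 for the mean of the co-cultures. The median of the 13 was 0.09, beside -0.02 over all genes. The 1 called was KIT, the receptor for stem cell factor, and it fell. It held 5.66, 5.22 and 3.64 CPM in mono-culture, 2.11, 2.06 and 2.67 CPM with control ECs, 2.43, 1.16 and 1.81 CPM in senEC co-culture and 2.99, 2.22 and 1.55 CPM with EGCG-treated senECs, without overlap of any co-culture library with mono-culture. The log2 fold change of the mean of the co-cultures was -1.20 ± 0.23 (adjusted p = 0.0165), and the call was lost without the mono-culture library numbered 1 (adjusted p = 0.135) or 2 (0.174). None of the 14 LPS response genes passed, with 12 of 14 above 0 and a median log2 fold change of 0.24 beside -0.02 over all genes. No gene of any list passed among the 3 co-cultures, where no gene at all was called.

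**Figure D5:**
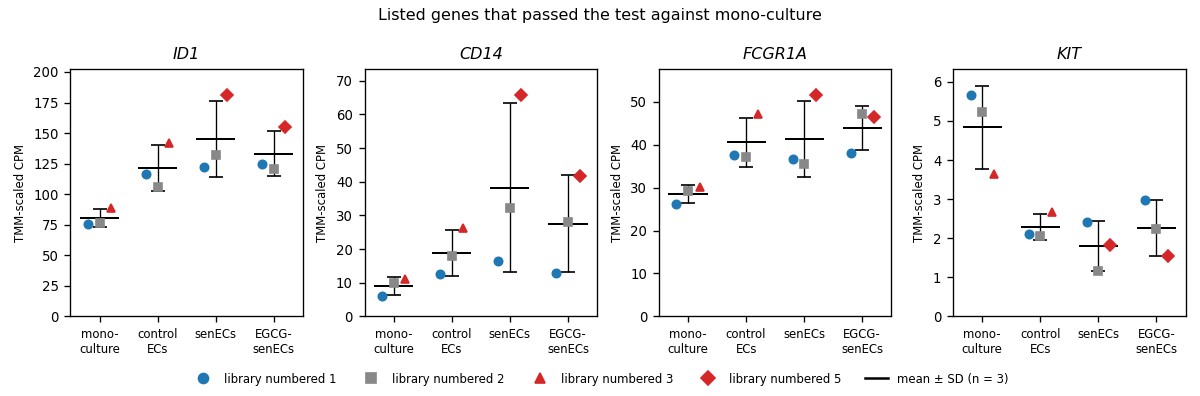
Level of ID1, CD14, FCGR1A and KIT in TMM-scaled CPM (vertical axes, from 0) in the 12 libraries by group, with the mean ± SD of 3 libraries in black. All 9 co-culture libraries lie above mono-culture for ID1, CD14 and FCGR1A and below it for KIT, which stays under 6 CPM throughout.

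For each member, the gene with the most similar course over the 12 libraries was found among 9333 genes with a mean of at least 10 CPM, by Pearson's r of log2(CPM + 2). The 12 points share the groups, the library numbers and the scaling, so that r is a description. The genes were TAGLN2 for SPI1 (r = 0.97), TAP1 for CEBPB (r = 0.95), CMC1 for CEBPD (r = 0.92), MED25 for CEBPA (r = 0.96) and ABCC3 for KLF4 (r = 0.94). For the others they were USP2 for IRF8 (r = 0.94), CHD7 for RUNX1 (r = 0.95), CDCA8 for MYB (r = 0.93) and NFKBIE, an inhibitor of NF-κB, for ID2 (r = 0.97).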

How the data were processed

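RNA-sequencing was done on THP1 cells in 4 groups of 3 libraries, grouped by the sample labels. The deposited table, made by the authors, holds unnormalized counts of reads for each gene symbol. Per the methods, cleaned reads were aligned with HISAT2, and hg38 is the build in the submitters' processing notes. The counting program and annotation are not given in the sources used here; all 57169 distinct symbols occur in GENCODE release 29, which gave positions and exon lengths. A further 4 columns of per-sample counts match no described sample and were not used.

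The members and gene lists were chosen with earlier results of these data known. Named are the members, every listed gene that passed, up to 2 listed genes per direction with the largest change at a mean of at least 1 CPM, and the most similar gene of each member. The main test was edgeR 4.0.16 in R 4.3.3 (TMM, quasi-likelihood, Benjamini-Hochberg over 25873 genes with at least 10 counts in sum, adjusted p under 0.05) with all 12 libraries in 1 model of the group. The model with the library number used edgeR's bias-adjusted deviances, chosen after seeing the data. On simulated data (25094 genes, 200 of them changed 2-fold by number) the default recovered 163 of the 200 and made 73 false calls. The bias-adjusted deviances recovered 154 and still made 21 false calls. For senECs against control ECs (25043 genes, 200 changed 2-fold), edgeR recovered 152 of these in simulated data and made 12 false calls. Standard errors came from the log2 fold change and its F value, as their ratio to the root of F. A single value tested by exact permutation cannot go below p = 0.1 with 3 libraries against 3. The alternatives were DESeq2 1.42.0, its size factors, other filters, only the libraries compared, a replicate block and each library left out. Python 3.11.15 with pandas 2.3.3, numpy 2.4.6 and matplotlib 3.10.9 was used for tables and plots. The values of 1 listed gene are not reported here.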

Additional observations from a re-analysis of the deposited data

How the results depend on the processing

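Leaving out 1 library at a time, the number of members called ran from 0 to 2 for senECs against mono-culture, 0 to 1 for EGCG-treated senECs, 0 to 1 for the mean of the co-cultures and 1 to 5 for the library number, and it was 0 in all such fits for control ECs against mono-culture and among the co-cultures. For senECs against mono-culture 2 members were called with DESeq2 and 3 with all genes of at least 1 count, and 0 with bias-adjusted deviances, only the libraries compared, filterByExpr or a minimum of 10 counts in each library. CEBPB was the 1 member called with all genes of at least 1 count for control ECs and for EGCG-treated senECs, and DESeq2 called it for EGCG-treated senECs. DESeq2 called 2 members for the mean of the co-cultures (439 of 25873 genes) and 6 for the library number (1708 of 25873 genes). For the number, 5 members were called with at least 10 counts in every library (1597 of 13903 genes) and with default deviances (2486 of 25873 genes). The mean level of IRF8 in mono-culture moved to 698.5 CPM on plain library totals, which shifted all genes of a library by up to 0.13 on the log2 scale.

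Some members that did not pass changed sign in single fits. For CEBPA the log2 fold change ran from -0.083 to 0.041 for the mean of the co-cultures and from -0.12 to 0.14 for senECs against control ECs when 1 library was left out. The like ranges were -0.27 to 0.047 for KLF4 and -0.017 to 0.13 for RUNX1 for the mean of the co-cultures, -0.22 to 0.013 for MYB and -0.0094 to 0.42 for ID2 for senECs against control ECs, and -0.012 to 0.20 for IRF8 for EGCG-treated senECs against senECs. The value of ID2 fell to -0.0094 without the senEC library numbered 5. The cause was not tested.

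By label, libraries of different groups share only a number. Their deviations from group means correlated at 0.46 to 0.58 for pairs numbered 1 and 0.03 to 0.34 for pairs numbered 2. Those numbered 3 and 5 had 0.42 and 0.34. Pairs of 3 with 5 had 0.37 to 0.53, other unlike pairs -0.56 to 0.22. Own numbers correlated best for 5 of 6 libraries where groups share 3. Where they share 2 and the third is unmatched, it was 2 to 4. With the number as a replicate block (bias-adjusted deviances), CEBPB was the 1 member called for control ECs (adjusted p = 0.00997), for senECs, for EGCG-treated senECs (0.0311) and for the mean of the co-cultures, and 0 were called among the co-cultures. With a replicate block and default deviances 1 member was called for control ECs and for EGCG-treated senECs and 2 for senECs and the mean. CEBPA for senECs against control ECs was 0.0090 with the replicate block and 0.010 with it and default deviances.

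Counts over all genes moved more. With 1 library left out they ran from 11 to 44 for control ECs, 19 to 255 for senECs, 12 to 100 for EGCG-treated senECs, 37 to 244 for their mean (each against mono-culture) and from 838 to 2427 for the library number. Among the co-cultures they ran from 0 to 1 in both comparisons with control ECs and stayed at 0 between the senEC groups. For control ECs, senECs, EGCG-treated senECs and their mean against mono-culture, DESeq2 called 116, 339, 226 and 439 genes, all genes with at least 1 count gave 223, 588, 377 and 582, and the replicate block 284, 300, 206 and 479 (469, 709, 424 and 824 with default deviances), against 37, 80, 55 and 187. Only the libraries compared gave 20 for senECs and 35 for EGCG-treated senECs, where at least 10 counts in every library gave 36. Among the co-cultures all genes with at least 1 count gave 114, 14 and 43 and the replicate block 8, 0 and 4 (153, 13 and 34 with default deviances) for senECs against control ECs, EGCG-treated senECs against senECs and against control ECs. For the library number they gave 2244 and, with default deviances, 2486 against 1461.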
